A study of Mus musculus with 10 samples.

Results

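The Sprouty and Spred genes encode intracellular inhibitors that growth factor receptors switch on against themselves. Members were the rows of the deposited table whose symbol is Spry1, Spry2, Spry3, Spry4, Spred1, Spred2 or Spred3, which gave 7 of 27179 listed genes. All were compared in femur RNA of 5 mice with 1 copy of an Fgfr1 allele carrying the amino acid change N330I (genotype Fgfr1+/N330I, called mutant here) and of 5 wild-type (WT) littermates. By their titles these were 3 female mutant, 3 female WT, 2 male mutant and 2 male WT mice, all aged 3 or 4 weeks, with no age given for a single mouse. The labels name no promoter or cell type that limits the allele, and gene counts do not separate RNA of the mutant copy from RNA of the WT copy. Values are gene counts that the authors divided by DESeq2 size factors and rounded, called normalized counts here.

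Fibroblast growth factors bind FGF receptors, which pass the signal through adaptor proteins to Ras and from there through the kinases RAF, MEK and ERK. ERK activity induces Sprouty genes, and Sprouty proteins then block the pathway between the receptor and RAF, so that they act as feedback inhibitors. Spred proteins share the cysteine-rich end of the Sproutys and add a domain that brings neurofibromin, which turns Ras off, to the membrane. In bone and cartilage, FGF receptor signalling controls the growth plate and the maturation of osteoblasts.

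Some libraries differed from the rest in ways that touch these genes. The estimated depth was 18.1 M reads in female WT 3, where the ribosomal RNA precursor Rn45s took 28.8% of all normalized counts, and 27.5 M to 30.5 M in the other libraries. In male WT 1, genes with long exon sequence had low values: for each log10 of exon length, the log2 deviation from the gene mean had a slope of -1.62. The slope was -0.48 to 0.45 in the other 9 libraries. For the X-inactivation RNA Xist, male mutant 2 was at 7972 normalized counts, and for the Y-linked gene Ddx3y at 4, which goes against its label, and it is called by its label throughout. Female and male libraries also carry 2 different series of library names, so labelled sex and library series cannot be told apart. Osteoblast markers (10 genes) held 1.66% to 7.27% of the counts outside Rn45s, and 8 macrophage markers held 0.847% to 2.57%. In male WT 1 the macrophage share was the larger, at 2.57% against 1.66%. The 12 erythroid and other marrow markers held 0.0083% to 0.0152%, and 3 of them reached 10 normalized counts in at least 5 libraries.

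Promoter windows were found in the RefSeq table (build GRCm38.p6, which has the coordinates of mm10) for 5 of the 7 members, Spry1, Spry2, Spred1, Spred2 and Spred3. Each runs from 250 bases before the annotated start to 50 after it. The windows of the 4 genes whose mutant libraries all lay above all WT libraries in females (below) are printed to show what these genes have in common and what they do not. Capitals mark every match, on either strand, to CCGGAA (a core bound by ETS factors such as Etv5), TGACG (part of the cAMP response element) or GGGCGG (the GC box bound by Sp1). TGANTCA, the AP-1 element, and the CArG box of serum response factor were also searched and had no match in the 5 windows. The Spry1 window is chr3:37639697-37639996 on the plus strand, Spry2 chr14:105896770-105897069 on the minus strand, Spred1 chr2:117120821-117121120 on the plus strand and Spred2 chr11:19924192-19924491 on the plus strand.
Spry1: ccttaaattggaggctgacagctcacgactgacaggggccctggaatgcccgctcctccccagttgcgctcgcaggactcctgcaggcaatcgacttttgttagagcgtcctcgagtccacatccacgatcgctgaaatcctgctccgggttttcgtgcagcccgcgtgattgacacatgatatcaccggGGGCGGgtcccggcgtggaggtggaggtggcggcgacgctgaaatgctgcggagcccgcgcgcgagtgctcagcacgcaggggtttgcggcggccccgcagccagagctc
Spry2: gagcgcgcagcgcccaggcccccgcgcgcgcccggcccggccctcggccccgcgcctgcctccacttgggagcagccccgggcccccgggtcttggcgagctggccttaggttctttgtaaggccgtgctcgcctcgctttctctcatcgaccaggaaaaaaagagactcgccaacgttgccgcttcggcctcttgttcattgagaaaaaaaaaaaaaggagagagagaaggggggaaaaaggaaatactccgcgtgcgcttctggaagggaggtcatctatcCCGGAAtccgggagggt
Spred1: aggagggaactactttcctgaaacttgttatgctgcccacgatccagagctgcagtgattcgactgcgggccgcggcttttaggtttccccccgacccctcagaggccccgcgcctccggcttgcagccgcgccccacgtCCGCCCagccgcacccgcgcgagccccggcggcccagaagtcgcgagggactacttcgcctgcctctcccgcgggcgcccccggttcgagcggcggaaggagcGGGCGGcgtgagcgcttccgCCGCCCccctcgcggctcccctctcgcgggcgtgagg
Spred2: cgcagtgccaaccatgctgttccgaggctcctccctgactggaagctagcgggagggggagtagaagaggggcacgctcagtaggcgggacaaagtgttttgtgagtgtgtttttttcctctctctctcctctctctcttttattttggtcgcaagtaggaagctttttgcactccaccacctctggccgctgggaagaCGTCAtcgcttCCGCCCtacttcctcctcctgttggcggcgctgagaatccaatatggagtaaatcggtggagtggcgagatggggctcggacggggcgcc
The matches differed from gene to gene. Spry1 held 1 GC box, Spred1 held 3, and Spred2 held 1 GC box and 1 TGACG, while Spry2 held 1 CCGGAA alone and Spred3, not printed, held 3 GC boxes. No 2 matches overlapped. Of 32851 windows of the same length, 35.7% held GGGCGG, 20.8% TGACG, 14.9% CCGGAA, 7.81% TGANTCA and 1.63% a CArG box. G and C made up 72.3% of the Spred1 window, 64.3% of Spry1, 62.7% of Spry2, 57% of Spred2 and 55% of Spred3, where the median window had 52.7%. The RefSeq start of Spred1 lies 379 bases outside the first exon in the deposited table, and the other 4 starts lie within 3 bases of it.

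Per length of exon, Spry1 and Spred1 were the most abundant members and Spred3 the least. Over all 10 libraries, Spry1 averaged 642 ± 196 normalized counts per kilobase of exon and Spred1 571 ± 125 (SD, n = 10 each). Spry2 followed at 347 ± 130 and Spred2 at 259.6 ± 59.3 on the same scale (SD, n = 10). Spry4 had 132 ± 48.3 and Spred3 78.8 ± 17.5 normalized counts per kilobase (SD, n = 10). Spred1 lay above Spry2, and Spred2 above Spry4, in 10 of 10 libraries. Spry1 lay above Spred1 in 7 of 10, Spry2 above Spred2 in 7 of 10 and Spry4 above Spred3 in 8 of 10, so these neighbours overlapped. The estimated reads behind a value ran from 147 for Spred3 to 2600 for Spry1, and were fewest, for each member, in female WT 3 or male WT 1.

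**Figure D1:**
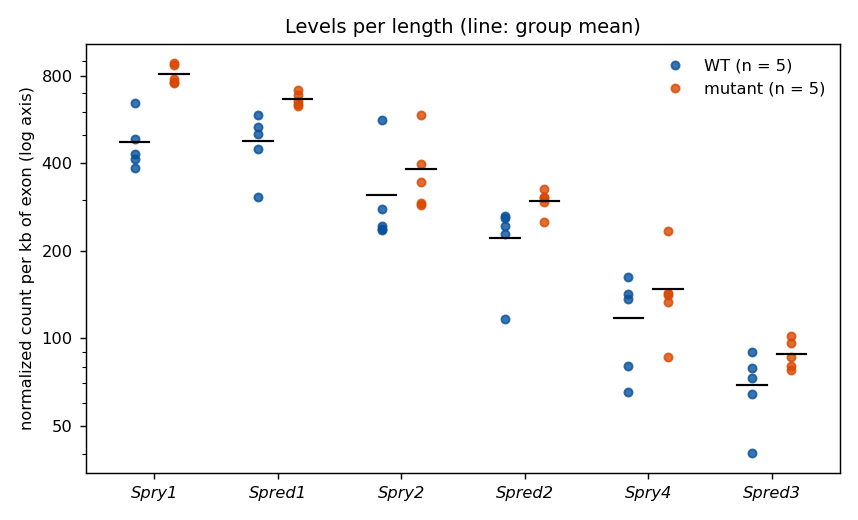
Normalized counts per kilobase of exon (log axis) of the 6 members with reads, in order of their mean, with 1 point per library (5 WT, 5 mutant) and a line at each group mean. Spry1 and Spred1 lead at means of 642 and 571 over all libraries, and their mutant points lie above their WT points.

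Spry3 gave no measurement. It is listed at 0 in every library, on NT_165789.2, a scaffold listed apart from the chromosomes. All 84 genes that the table places on such scaffolds were at 0 in every library. They include the other 4 genes on the same scaffold, Vamp7 among them, a membrane fusion gene used by most cells. A 0 for Spry3 therefore carries no information on its expression in femur, no limit or test is given for it, and the counts that follow are over 6 members.

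The study's design sets mutant against WT femurs, and 6 of the 6 measured members had a mean above that of WT. With limma on log2(normalized count + 1), labelled sex as covariate and Benjamini-Hochberg adjustment over 14362 tested genes, 0 members and 0 genes in all passed an adjusted p under 0.05 (0% called). An unadjusted p under 0.05 was reached by 907 genes, of which 530 were higher in mutants (3.69% of those tested). Spry1, Spred1, Spred2 and Spred3 were among them, 4 of the 6 members. Estimates above 0 came for 48.2% of all tested genes and for 6 of 6 members. The median estimate was 0.43 log2 for the members and -0.01 for all tested genes. The members were chosen with earlier results of these data known, so these counts describe them and do not test the family. In bulk RNA, fewer cells of a type and less RNA per cell cannot be told apart.

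Complete separation of the genotypes was uncommon in the table, and Spry1 and Spred1 had it. In all 10 libraries together, 0.494% of tested genes (71 of 14362) had every mutant library above every WT library, and among the 6 members it was 2. Leaving out any 1 library kept both genes separated, where the share of all tested genes was 0.648% to 1.48%. With female WT 3 and male WT 1 left out together they were again the 2 separated members, and 173 of the 14362 tested genes were separated in this way.

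Spry1 (Entrez 24063, chromosome 3, 37639950 to 37644599, mm10, 3 exons in the deposited table) restrains signalling from receptor tyrosine kinases and in mice limits the branching of the kidney. Its normalized counts were 1885, 2197 and 1901 in the female mutants and 1608, 1075 and 1031 in the female WT mice. They were 1948 and 2176 in the labelled male mutants and 960 and 1211 in the male WT mice. The mutants formed a narrow band, at 2021 ± 153 (SD, n = 5), and every WT library lay beneath it, at 1177 ± 258 (SD, n = 5), with female WT 1 the highest. The difference was 0.80 ± 0.14 log2 (SE), or 1.74-fold, with a limma adjusted p of 0.247 and the rank 9 of 14362 genes by p. The difference was 0.71 ± 0.18 in females and 0.93 ± 0.23 in labelled males (SE), with limma adjusted p-values of 1 and 0.563. The difference between these 2 estimates was 0.22 ± 0.29 (SE), limma adjusted p = 0.819, with a 95% interval of -0.44 to 0.88. Spry1 also took up a larger part of the family's RNA per length, 32.4% to 36.8% in the mutants and 23.1% to 33.6% in WT libraries, ranges that overlap.

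Spred1 (Entrez 114715, chromosome 2, 117121450 to 117179337, 7 exons) binds neurofibromin, and in people its loss causes Legius syndrome, a disorder of raised Ras signalling. Its normalized counts were 2061, 1972 and 1916 in female mutants and 1605, 1509 and 1340 in female WT mice. They were 2147 and 1893 in labelled male mutants and 921 and 1761 in male WT mice. The groups did not overlap, but the gap was narrow: the lowest mutant, the library labelled male mutant 2, was at 1893 and the highest WT library, male WT 2, at 1761. The difference was 0.52 ± 0.16 log2 (SE), 1.43-fold, with a limma adjusted p of 0.639. Male WT 1 was far below the other WT libraries, and without it the difference was 0.35 ± 0.08 (SE), with a limma adjusted p of 0.485 (0.196 to 0.979 over all alternatives). The share of the family's RNA per length held by Spred1 was 28.0% ± 2.83 in mutants and 28.5% ± 2.48 in WT (SD, n = 5 each), and these means differ by less than that spread.

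**Figure D2:**
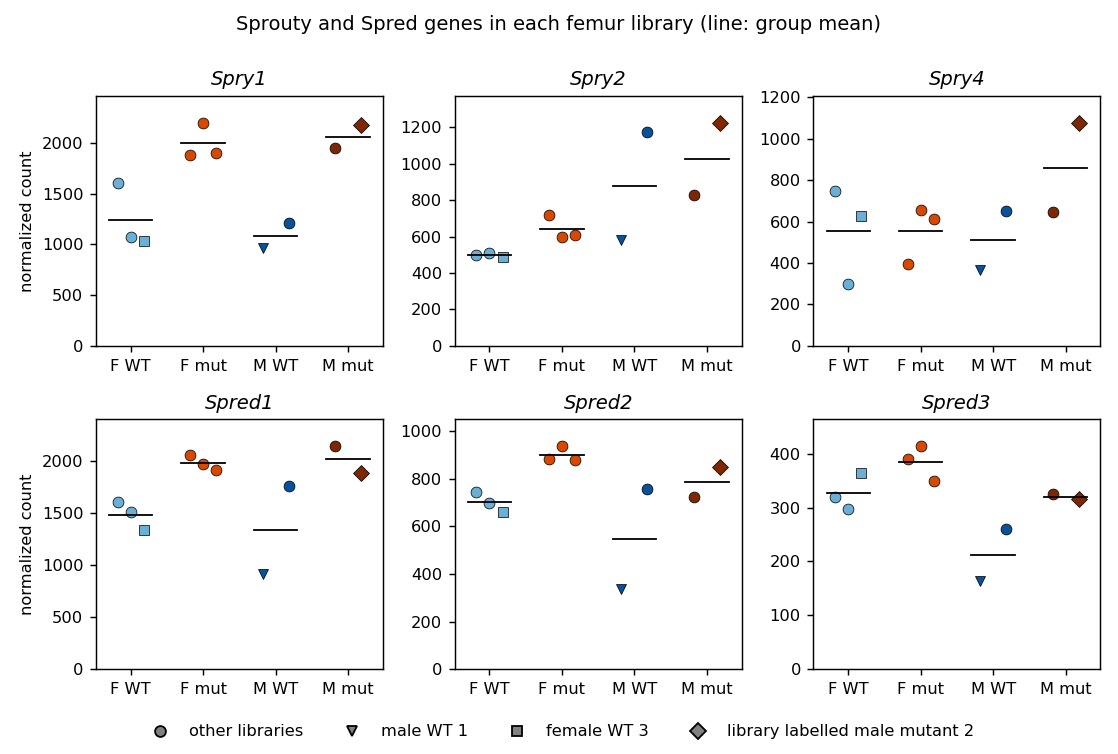
Normalized counts of the 6 measured members in each library, by labelled sex (F, M) and genotype, with a line at each group mean and own symbols for male WT 1, female WT 3 and the library labelled male mutant 2. Mutant points of Spry1 and Spred1 lie above all WT points, and male WT 1 is the lowest library for both and for Spred2 and Spred3.

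In females alone, 4 of the 6 members separated the genotypes completely: Spry1, Spry2, Spred1 and Spred2. The same was true of 6.77% of all tested genes (mutants higher). Their number was 4 or 5 when any 1 female library was left out, where the share of all tested genes was 10.3% to 14.4%. Spred3 was the fifth without female mutant 3 (10.3%) or female WT 3 (10.9%). The limma test in females called 0 members and 2 genes (0.0139%), and 637 genes had an unadjusted p under 0.05. Of the tested genes, 2.03% were higher at an unadjusted p under 0.05, and among the members this was 1, Spry1. The 2 called genes, named after their values were seen, were Gm3650 and Eif3j2, which has a near-identical copy, Eif3j1, with which it can share reads. Estimates above 0 came for 49.6% of tested genes and for 6 of 6 members.

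Spry2 (Entrez 24064, chromosome 14, 105891947 to 105896819, 2 exons) binds the adaptor GRB2 and the ubiquitin ligase CBL. It stood at 721, 600 and 609 normalized counts in female mutants and 497, 508 and 491 in female WT mice. The 3 female WT values were nearly equal, and all 3 mutants lay above them. In labelled males the counts were 829 and 1225 in mutants and 583 and 1173 in WT, which overlap. The difference was 0.33 ± 0.18 log2 over all mice, 0.36 ± 0.25 in females and 0.28 ± 0.31 in labelled males (SE), with limma adjusted p-values of 0.795, 1 and 0.683. Without male WT 1 it was 0.18 ± 0.15 over all mice and -0.22 ± 0.22 in labelled males (SE; limma adjusted p = 0.823 and 0.997), so the direction in labelled males rests on that library.

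Spred2 (Entrez 114716, chromosome 11, 19924442 to 20022597, 6 exons) is a close relative of Spred1 that also restrains ERK. Its normalized counts were 882, 936 and 876 in female mutants and 745, 697 and 658 in female WT mice. In labelled males they were 723 and 849 in mutants and 336 and 755 in WT, so that the female groups were separate and the male groups overlapped. The difference over all mice was 0.47 ± 0.19 log2 (SE, limma adjusted p = 0.750). Without male WT 1 it was 0.27 ± 0.09 (SE, limma adjusted p = 0.598).

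Spred3 and Spry4 separated less clearly. Spred3 (Entrez 101809, chromosome 7, 29158829 to 29168647, 6 exons), a Spred without a working KIT-binding domain, had 349 to 414 normalized counts in female mutants and 297 to 364 in female WT mice, and 325 and 316 against 163 and 260 in labelled males. Its difference was 0.39 ± 0.15 log2 (SE, limma adjusted p = 0.739), and 0.25 ± 0.09 without male WT 1 (limma adjusted p = 0.635). Spry4 (Entrez 24066, chromosome 18, 38586265 to 38601268, 2 exons), a Sprouty that FGF signalling also induces, spread widely within every group. It ran from 397 to 655 in female mutants and from 299 to 746 in female WT mice, and had 645 and 1077 in labelled male mutants against 368 and 650 in male WT mice. The Spry4 difference was 0.35 ± 0.31 log2 (SE, limma adjusted p = 0.814), 0.06 ± 0.39 in females and 0.15 ± 0.30 over all mice without male WT 1.

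In labelled males, 3 of the 6 members separated the genotypes (Spry1, Spred1 and Spred3), where 13.1% of tested genes did so with mutants higher. The limma test called 0 members and 0 genes there (0%), with 1193 genes at an unadjusted p under 0.05. All 6 estimates were above 0, as were 7174 of those of the 14362 tested genes. These values depend on which of the 2 male WT libraries is used. Without male WT 1 the Spred1 difference in labelled males was 0.20 and that of Spred2 0.05, and without male WT 2 they were 1.13 and 1.22. Without male WT 2, 5 members passed (all but Spry4; limma adjusted p 0.00318 to 0.0335), and so did 4363 genes in all, with male WT 1 as the lone male WT library. Spry1 moved least, with 0.77 without male WT 1 and 1.10 without male WT 2. The test of the difference between labelled males and females called 0 members and 0 genes (0%; 563 at an unadjusted p under 0.05).

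**Figure D3:**
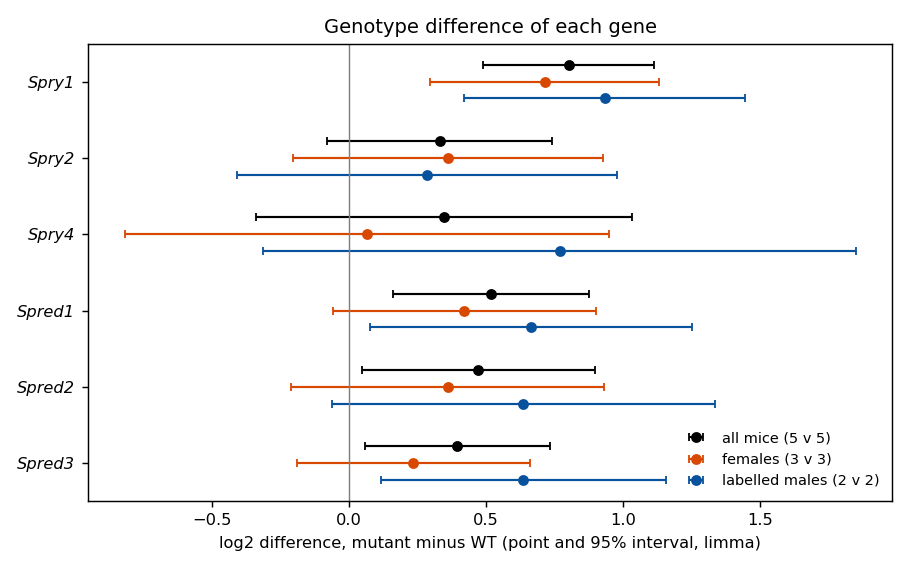
Log2 difference between mutant and WT for each measured member in all mice, females and labelled males, with 95% intervals from limma. All 18 estimates lie above 0; for Spry1 the 3 intervals stay above 0, from 0.80 in all mice to 0.71 in females and 0.93 in labelled males.

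Labelled sex was tied to the level of Spry2. Over both genotypes it was higher in labelled males by 0.69 ± 0.19 log2 (SE, limma adjusted p = 0.0337), 583 to 1225 normalized counts against 491 to 721 in females. The ranges overlap through male WT 1. The highest value, 1225, is that of the library labelled male mutant 2, whose Xist and Ddx3y counts go against its label. The other 5 members did not pass, the nearest being Spred3 at -0.46 ± 0.15 (limma adjusted p = 0.0606). In all, 2886 of 14362 genes (20.1%) differed by labelled sex, so that 1 of 6 members lies near the background. The Spry2 call was lost without the library labelled male mutant 2 (0.59, limma adjusted p = 0.0637) and when any of 5 female libraries was left out (0.67 to 0.69, limma adjusted p 0.0624 to 0.0703). Female and labelled male libraries also differ in the exon length slope, 0.17 to 0.45 against -1.62 to 0.14, and its part in the sex difference was not tested.

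**Figure D4:**
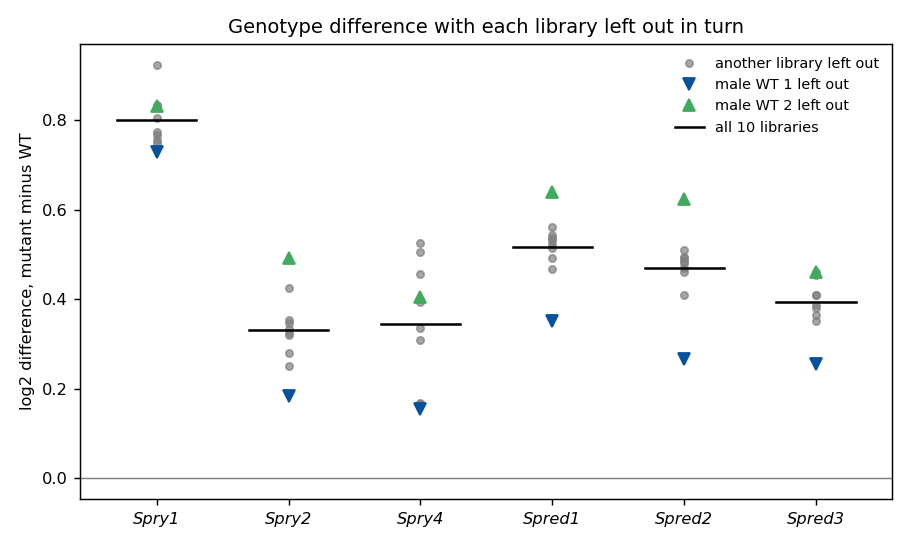
Log2 difference between mutant and WT over all mice for each measured member, with all 10 libraries (line) and with each library left out in turn (points). Leaving out male WT 1 gives 0.73 for Spry1, 0.35 for Spred1 and 0.27 for Spred2, and every point stays above 0.

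Male WT 1 was the lowest of the 10 libraries for Spry1, Spred1, Spred2 and Spred3. With each library's exon length slope as a further covariate, added after the data were seen, the differences over all mice were 0.73 ± 0.12 for Spry1, 0.40 ± 0.09 for Spred1 and 0.31 ± 0.06 for Spred2 (SE). They were 0.30 ± 0.11 for Spred3, 0.20 ± 0.11 for Spry2 and 0.19 ± 0.28 for Spry4 (SE). None passed (limma adjusted p 0.231 to 0.863).

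Summed levels of markers of other cell types were set side by side for mutants and WT, without a test. Over all 10 libraries, only the adipocyte list did not overlap, and further lists did not overlap in females alone (below). The summed normalized counts of 6 adipocyte markers ran from 9763 to 12794 in the mutant group and from 13091 to 17246 in WT libraries, with no overlap. Those of 10 endothelial markers, cells that also express Sproutys, were 2707 to 24757 in mutants and 14618 to 28906 in WT, and lowest in female mutant 1. Those of 10 skeletal muscle markers were 637 to 7202 in mutants and 494 to 2317 in WT, and those of 10 osteoclast markers 64512 to 343897 and 36444 to 104295. No marker of these 4 lists was at 0 in a whole genotype. The sums of 8 macrophage markers were 215714 to 406142 in mutants and 219262 to 778873 in WT, highest in male WT 1. For 10 chondrocyte markers they were 10920 to 23820 in mutants and 10578 to 24687 in WT. In females alone, osteoclast sums were 64512 to 97995 in mutants and 36444 to 60882 in WT, without overlap. Endothelial sums there were 2707 to 17606 and 18367 to 28906, and those of 8 osteocyte markers 28125 to 30540 and 21529 to 27666, also without overlap. The muscle, macrophage, chondrocyte, osteoblast and marrow sums overlapped in females. In labelled males the endothelial and osteocyte sums overlapped. With the mean endothelial marker level as covariate Spry1 differed by 0.90 ± 0.15 and Spred1 by 0.53 ± 0.19 (SE), and with the muscle level by 0.81 ± 0.18 and 0.53 ± 0.20. Spry4 differed by 0.70 ± 0.27 with the endothelial covariate, against 0.35 without it, and Spry2 by 0.17 ± 0.21 with the muscle covariate. None of these passed (limma adjusted p 0.245 to 0.998). The part of adipocyte, osteoclast, osteocyte, osteoblast, macrophage, marrow and chondrocyte markers was not tested.

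The rest of the pathway was compared with the family through lists written with earlier results known. Of 16 other genes that ERK signalling induces, 0 passed and 3 were higher at an unadjusted p under 0.05 (3.69% of all tested genes). The list's median estimate was 0.16 log2, against -0.01 for all tested genes. The 3 with the smallest p were Etv5 (0.46 ± 0.13) and Etv1 (0.71 ± 0.25), ETS transcription factors downstream of FGF, and Dusp4 (0.37 ± 0.13), a phosphatase of MAP kinases (SE, limma adjusted p 0.578 to 0.710). Mutant libraries held 1283 to 1796 normalized counts of Etv5 and WT libraries 881 to 1236, without overlap, as in 0.494% of all tested genes. For Etv1 mutant libraries held 267 to 585 and WT libraries 208 to 409. Dusp6, the ERK phosphatase most used as a readout of FGF signalling, had an estimate of 0.01 ± 0.15 (SE, limma adjusted p = 0.983) and was named after its values were seen. Its values ran from 1664 to 2963 in mutants and from 1803 to 2594 in WT, and overlapped.

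Of 21 genes that carry the signal from receptor to ERK, 0 passed. At an unadjusted p under 0.05, 2 were higher (3.69% of all tested genes) and 1 was lower (377 of 14362 tested genes). Their median was -0.04 log2, against -0.01 for all tested genes, and single estimates ran from -0.86 for Fgfr3 to 0.52 for Fgfr1. The smallest p-values belonged to Mapk3, which encodes ERK1 (-0.32 ± 0.13), the adaptor gene Shc1 (0.21 ± 0.09) and Fgfr1 itself (0.52 ± 0.23) (SE, limma adjusted p 0.747 to 0.783). Fgfr1 ran from 8856 to 12990 normalized counts in the mutant libraries and from 3861 in male WT 1 to 11326 in female WT 1. Of 14 genes for proteins that bind or act with Sproutys and Spreds, 0 passed, 0 had an unadjusted p under 0.05, and the median was 0.03. Ppp2r1a, a scaffold of protein phosphatase 2A, had -0.19 ± 0.10, the kinase gene Mknk1 -0.15 ± 0.11 and the caveolin gene Cav1 -0.25 ± 0.22 (SE, limma adjusted p 0.795 to 0.813). Nf1, which encodes neurofibromin, had 0.34 ± 0.32 (SE, limma adjusted p = 0.817; named after its values were seen).

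**Figure D5:**
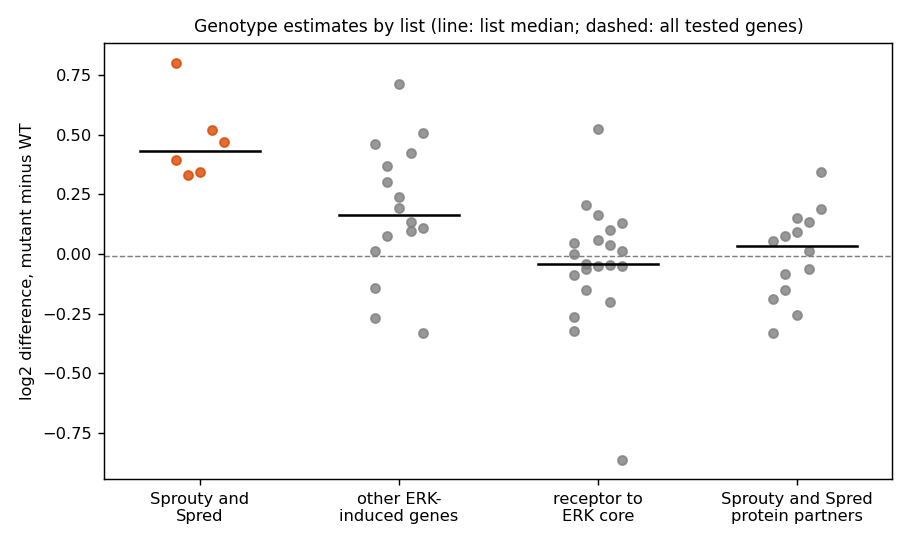
Log2 differences between mutant and WT over all mice, 1 point per gene, for the 6 measured members, 16 other ERK-induced genes, 21 genes from receptor to ERK and 14 protein partners, with each list's median as a line and that of all tested genes dashed. The medians are 0.43, 0.16, -0.04 and 0.03.

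Members also varied with each other across libraries, and these correlations are descriptions over 10 libraries that share genotype, labelled sex and the length slope. Spred1 and Spred2 had Pearson r = 0.91 and Spearman rho = 0.73, and r was 0.71 without male WT 1. Spry1 and Spred1 had r = 0.83 and rho = 0.83, and r = 0.85 without male WT 1. Spred2 and Spred3 had r = 0.89, which was 0.50 without male WT 1. Spry2 had r = 0.36 with Spry1 and -0.08 with Spred3.

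Over the same 10 libraries, the tested genes most like each member by Pearson r of log2 values were as follows. For Spry1 they were Ppara (0.94), Scube1 (0.92) and Mfap4 (0.92). Ppara, a lipid-sensing nuclear receptor gene, had only 11 to 41 normalized counts. For Spred1 they were the Wnt ligand gene Wnt7b (0.98), Lrch2 (0.96) and the chloride transporter gene Slc12a5 (0.96), and for Spred2 Cbx6, Prkca and the Wnt coreceptor gene Lrp6 (0.97 to 0.98). For Spry2 they were the insulin receptor substrate gene Irs2 (0.95), Lix1l (0.95) and Strbp (0.94). For Spry4 they were Smoc2, Gm12854 and Septin2 (0.90 to 0.94), and for Spred3 Tbl2, Krit1 and Sun1 (0.96 to 0.97). No gene was among the 3 most like of more than 1 member. Slc12a5 was also low, at 18 to 96 normalized counts, and Gm12854 ran from 9 to 135. Spearman rho over these pairs was 0.75, for Spry4 with Smoc2, to 0.95, for Spry1 with Mfap4. The correlations of this paragraph were not recomputed without male WT 1.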

How the data were processed

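RNA from pulverized femurs was depleted of ribosomal RNA and sequenced, per the labels' protocols. The submitters' processing notes name STAR 2.5.2b and DESeq2 1.14.1 with mm10; the sources used here do not name the counter or annotation. Per the file headers, the deposited score of a gene in a library is a DESeq2-normalized count, and the values show that the authors rounded it. Because of the rounding, whole reads were not recovered and no count test was run. The worth of 1 read (0.845 to 2.19 normalized counts) was estimated from skipped or doubled whole numbers among values up to 150. At most 1.10% of values were equal between replicates of a group, so no library is a copy of another of its group. Libraries of different groups were not compared in this way. Each mouse gave 1 library. 0 columns lacked a sample. Spreadsheet dates in place of 27 symbols were replaced through Entrez identifiers (RefSeq, GRCm38.p6).

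The 14362 genes that reached 10 normalized counts in at least 5 libraries were tested as log2(normalized count + 1) with limma 3.58.1 in R 4.3.3 (trend, robust), Benjamini-Hochberg adjustment and calls at an adjusted p under 0.05. Fold changes of low genes are understated on this scale. Within-sex differences share 1 estimate of spread from the 4 groups. Exon bases are the union of the listed exons. The method was tested on simulated data. Members and lists were chosen with earlier results of these data known. The text names every member, the 3 pathway genes per list with the smallest p, the 3 genes most like each member, and others only where said. Alternatives were pseudocounts, filters, scalings, weights, covariates, the replicate number as a block and leaving out libraries.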

Additional observations from a re-analysis of the deposited data

Results flagged for a closer look

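Spry2 in male WT 2 was 10.20 on the log2(normalized count + 1) scale, 1173 normalized counts, far above the other 4 WT libraries at 491 to 583. Spred2 in male WT 1 was 8.40 on the same scale, 336 normalized counts, far below the other 4 WT libraries at 658 to 755. Both were picked out because the gap to the nearest library was a large part of the range of the 5 WT libraries, by Dixon's criterion, which flags about 1 group in 20 by chance; 12 groups were examined.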

How the results depend on the processing

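Over all mice, the 6 members' genotype differences stayed above 0 and short of the threshold in all 25 alternatives, with Spry1 at 0.62 to 0.92 log2, Spred1 at 0.29 to 0.64, Spred2 at 0.21 to 0.62, Spred3 at 0.25 to 0.48, Spry2 at 0.10 to 0.49 and Spry4 at 0.14 to 0.70. Array weights called 11 genes instead of 0, none a member (Spry1 adjusted p = 0.0504); the cause was not tested. With the replicate block the Spry1 difference was 0.80 and 0 genes were called. Same-numbered libraries correlated in their deviations from the group mean at -0.32 to 0.22, and differently numbered ones at -0.22 to 0.31. With 2 or 3 libraries per group these deviations depend on each other. The check therefore cannot show whether the numbers pair the mice.

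In females 2 genes were called, 1 with a pseudocount of 5 and 1 with quantile normalization, and 0 to 1 with 1 library left out. Leaving out 1 library called 0 to 4363 genes in labelled males, 0 to 2674 for the difference between the sexes and 964 to 4034 for labelled sex, against 0, 0 and 2886. The large numbers come without male WT 2, where male WT 1 is the lone male WT library and is assumed to vary like the other groups. Separated members in labelled males were 3, where 13.1% of tested genes separated, and 3 to 6 with 1 library left out, where 25.5% to 40.1% did (6 members at 30.9% without male mutant 1 and at 40.1% without male WT 2). Estimates that changed sign with 1 library left out were those of Spry4 in females (-0.33 to 0.33) and Spry2 in labelled males (-0.22 to 0.79). For the difference between the sexes they were those of Spry2 (-0.58 to 0.43), Spred1 (-0.23 to 0.71) and Spred2 (-0.31 to 0.86), and for labelled sex those of Spry1 (-0.12 to 0.043) and Spred1 (-0.25 to 0.11). The planned exact test for members too low for the fit was not run, since Spry3, the only such member, is at 0 in every library.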
